A study of Homo sapiens with 4 samples.

Results

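Genes of the p53 pathway were examined in H1299 cells treated with HgCl2. The set holds MDM2, MDM4, PPM1D, CDKN1A, GADD45A, GADD45B, BTG2, SESN1 and GDF15, taken by gene symbol with all of their transcripts, which gave 92 of the 227368 transcripts in the deposited tables. H1299 is a cell line of human non-small-cell lung carcinoma that makes no p53 protein. Cells received 5 μM HgCl2 for 48 h, or 0.6% EtOH, the solvent, as control, and 2 columns per group, numbered 1 and 2 as replicates, were deposited. The deposited treatment text gives HgCl2 for all 4 samples, while the sample titles and the methods of the study give EtOH for the controls, and the titles were followed.

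The transcription factor p53 is stabilized by DNA damage and other stress and switches on genes that halt the cell cycle, repair DNA or start cell death. MDM2 is the ubiquitin ligase that degrades p53, MDM4 is its partner that masks the activation domain of p53, and the phosphatase PPM1D (Wip1) removes activating phosphates, and p53 induces MDM2 and PPM1D, which closes a negative feedback loop. CDKN1A (p21) inhibits cyclin-dependent kinases, GADD45A and GADD45B act in growth arrest and stress kinase signaling, BTG2 is an antiproliferative protein that promotes mRNA deadenylation, SESN1 restrains mTORC1 and oxidative stress, and GDF15 is a secreted stress cytokine. In cells without p53 these genes are still transcribed from basal promoters and through other stress factors.

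SESN1 and MDM2 each have more than one start site, and p53 is known to act on the inner ones, so their promoter windows are shown. The windows hold 250 bases before and 50 bases after a RefSeq start on GRCh38.p14, 5′ to 3′ on the strand of the gene. Capitals mark a match to the consensus decamer of the p53 response element, which is palindromic and so covers both strands.
SESN1, outer start, minus strand, chr6:109094797-109095096: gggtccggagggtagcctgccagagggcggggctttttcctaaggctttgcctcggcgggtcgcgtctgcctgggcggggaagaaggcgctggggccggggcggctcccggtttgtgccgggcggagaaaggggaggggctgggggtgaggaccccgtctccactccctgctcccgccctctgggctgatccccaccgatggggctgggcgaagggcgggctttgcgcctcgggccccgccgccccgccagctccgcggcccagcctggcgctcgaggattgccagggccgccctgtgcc
SESN1, middle start, minus strand, chr6:109009503-109009802: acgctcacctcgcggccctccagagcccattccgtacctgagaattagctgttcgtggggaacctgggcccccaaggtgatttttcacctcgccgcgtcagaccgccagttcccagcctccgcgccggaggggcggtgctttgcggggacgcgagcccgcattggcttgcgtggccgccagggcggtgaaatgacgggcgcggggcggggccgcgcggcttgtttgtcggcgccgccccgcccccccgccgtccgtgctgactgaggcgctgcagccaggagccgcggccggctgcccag
SESN1, inner start, minus strand, chr6:109008939-109009238: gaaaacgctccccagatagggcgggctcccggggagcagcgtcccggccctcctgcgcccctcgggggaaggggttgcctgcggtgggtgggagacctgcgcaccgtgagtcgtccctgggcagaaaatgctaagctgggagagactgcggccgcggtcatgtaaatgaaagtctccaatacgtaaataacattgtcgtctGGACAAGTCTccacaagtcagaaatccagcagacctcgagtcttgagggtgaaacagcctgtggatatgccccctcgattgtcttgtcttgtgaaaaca
MDM2, outer start, plus strand, chr12:68807927-68808226: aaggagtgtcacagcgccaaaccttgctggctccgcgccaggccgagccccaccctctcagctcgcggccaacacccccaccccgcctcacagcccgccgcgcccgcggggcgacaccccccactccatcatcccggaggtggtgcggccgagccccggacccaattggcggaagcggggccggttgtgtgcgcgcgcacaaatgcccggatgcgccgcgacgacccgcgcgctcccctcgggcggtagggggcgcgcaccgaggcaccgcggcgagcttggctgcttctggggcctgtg
MDM2, inner start, plus strand, chr12:68808767-68809066: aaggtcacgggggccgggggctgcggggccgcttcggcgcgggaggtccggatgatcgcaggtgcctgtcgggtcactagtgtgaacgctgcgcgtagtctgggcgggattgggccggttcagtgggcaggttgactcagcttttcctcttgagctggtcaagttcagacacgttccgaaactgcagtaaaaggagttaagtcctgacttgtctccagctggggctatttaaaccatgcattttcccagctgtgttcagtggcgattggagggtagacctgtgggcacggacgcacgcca

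Of 13 windows found for 8 of the 9 genes, 1 held the decamer, that of the inner SESN1 start, where GGACAAGTCT lies 49 to 40 bases before the start. Windows of neighbouring MDM2 starts overlap almost fully, so the 13 are not separate sequences. Among all 35116 windows of the table, 6.63% held it. The GC box, searched as GGGCGG and CCGCCC with overlapping matches counted, was found in 11 of the 13 windows and in 45.0% of all windows, with 8 matches at the outer and 1 at the inner SESN1 start. The absence of a match says only that these letters are not in the window.

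The total counts lie between 4720978 and 5053120 per column. The transcripts with a count were fewer in HgCl2, 25432 and 25531, than in EtOH, 33148 and 33106. Over transcripts with at least 20 counts in their sum, the variance of the difference between the 2 columns was 0.505 times that of counting noise for EtOH (95% confidence interval 0.492 to 0.517) and 0.516 times for HgCl2 (0.503 to 0.530), so columns of 1 group differed less than sampling noise would make them, and each group was counted as 1 sample. There is thus no replicate check of any difference given here and no p-value, and intervals are exact (Clopper-Pearson, or Poisson for a level) at 95%, from mean counts, and cover counting error only. The study calls its libraries biological replicates, and the labels name no separate cultures. Reads shared by several transcripts are hardly represented in the counts: of the annotated transcripts with no base of their own 1.71% have a count, and 41.8% of the 19918 protein-coding genes have no count at all. Of the markers taken for the line, VIM had 620 and 628 counts in EtOH and 501 and 511 in HgCl2, and KRT18 had 23 and 24 against 18 and 31. KRT8 had 53 and 58 against 4 and 4, KRT7 15 and 14 against 3 and 2, and CDH2 13 and 13 against 1 and 2. Of the KRT8 counts, 44 and 47 against 2 and 2 were on ENST00000619952. It has no coding base of its own and lies apart from the other counted KRT8 transcripts. The counted transcripts of KRT7, KRT18 and VIM are retained introns, of the nonsense-mediated decay class, or without a defined coding sequence. These counts therefore do not give the levels of the marker genes. Of the markers of other cell types, PTPRC and CD68 of blood cells and COL1A2 of fibroblasts had 0 in every column, while COL1A1 of fibroblasts had 13 and 18 against 3 and 4 and PECAM1 of endothelium 5 and 4 against 1 and 2. The part of these in the results below was not tested.

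The p53 relatives TP63 and TP73, which bind the same response element, had 0 counts in every column on 14 transcripts each, which allows up to 3 counts per column.

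Of the 92 transcripts of the p53 pathway set, 17 had a count, and they belong to 7 of the 9 genes. The whole set held 771 and 804 counts in EtOH and 719 and 710 in HgCl2. A single transcript of MDM2 held 89.7% of them. Of the 92 transcripts, 52 have no base that another listed transcript does not cover, and 2 of these 52 had a count. Of the 19 with an unbroken run of 150 or more such bases, 11 had a count, and they held 98.5% of the counts of the set. The counts therefore stand for the stretches that belong to a transcript alone and do not give the level of a gene.

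**Figure D1:**
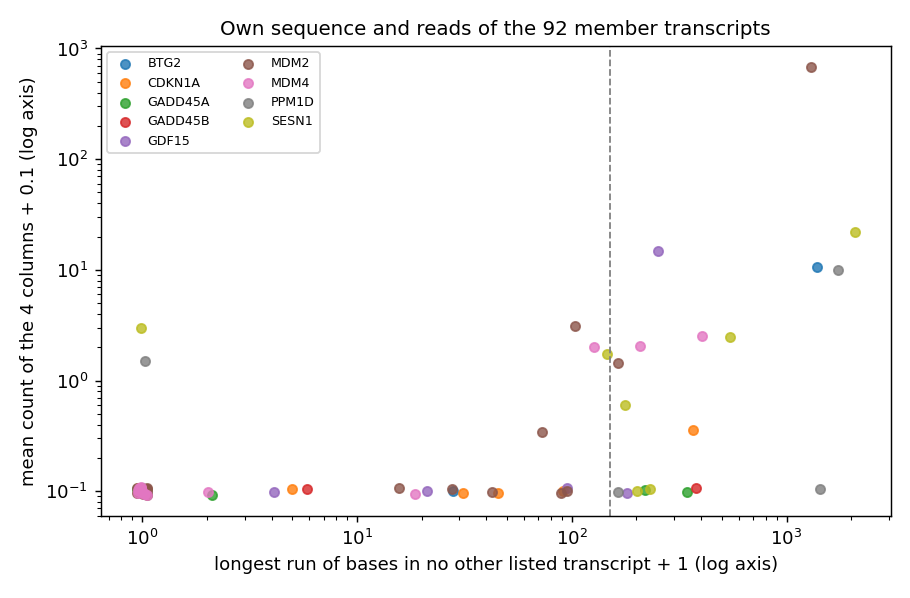
Each point is 1 of the 92 transcripts, with the longest run of bases found in no other listed transcript on the x axis and the mean count of the 4 columns on the y axis, both on log axes with 1 and 0.1 added and points spread slightly for view. The dashed line marks 150 bases. The 5 transcripts whose mean reached 10 counts lie right of it, and the row at the bottom holds the transcripts without a count.

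Transcripts were compared for a 2-fold difference, without a p-value, where their mean FPKM (fragments per length of transcript and depth of library, as deposited) was above 1 in at least one group, with log2 fold changes from the edgeR fit over 17547 transcripts. Of the set, 8 transcripts of 5 genes passed this filter: 2 of MDM2, 1 of MDM4, 3 of SESN1 and 1 each of BTG2 and GDF15. The 9 others with a count had a lower FPKM. Of the 8, 1 was at least 2-fold higher in HgCl2 and 5 were at least 2-fold lower, against 19.2% and 34.1% of all tested transcripts. Each of those past 2-fold had a mean FPKM above 1 in its higher group alone. MDM2 ENST00000258149 and GDF15 ENST00000252809, not past 2-fold, were above 1 in both groups. The filter thus favours transcripts that are high in 1 group, in either direction, and the calls follow partly from it. When a group at or under 3 counts was set to 3 counts, 0 were higher and 3 lower (BTG2, SESN1 ENST00000436639 and GDF15, the last at the limit), against 16.9% and 22.1%. The median log2 fold change was -2.10 over the 8, and -0.27 over the 7 that had a value when low groups were set to 3 counts, against -0.21 and -0.11 over all tested transcripts. When the counting interval also had to exclude 0, 0 were higher and 2 lower, BTG2 and SESN1, against 15.5% and 17.0%. Low counts and lower values went together over the whole table: 62.6% of those whose mean was below 10 counts were at least 2-fold lower and 14.7% higher. From 10 to below 30 counts these shares were 33.1% and 32.4%, from 30 to below 200 counts 14.2% and 22.2%, and from 200 counts upward 2.03% and 4.65%. With 8 transcripts, of which 7 have a mean under 30 counts, these shares do not set the genes apart from the rest of the table.

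**Figure D2:**
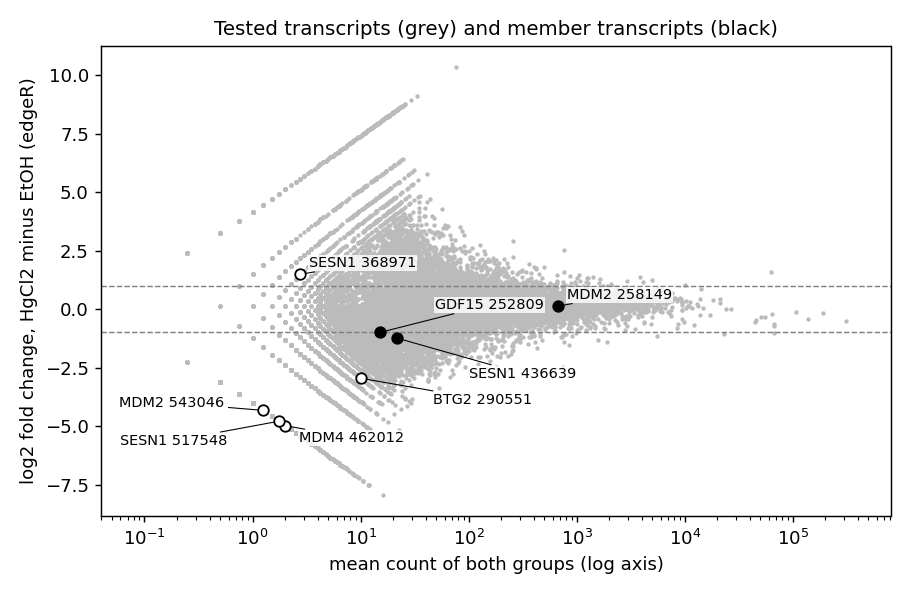
Log2 fold change of HgCl2 over EtOH from edgeR on the y axis against the mean count of both groups on a log axis, for all 17547 tested transcripts in grey and the 8 of the p53 pathway set in black, open where a group has at most 3 counts, so that the fold depends on a small constant added by the fit. MDM2 ENST00000258149 lies at 0.13 among transcripts with little spread, and the others lie in the broad part at low counts.

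Among the regulators of p53, MDM2 was the one gene with a well-counted transcript. Its full-length coding transcript ENST00000258149 (chr12:68808177-68845544, plus strand, GRCh38) had 664 and 691 counts in EtOH and 672 and 667 in HgCl2. The HgCl2 columns lie within the range of the EtOH columns. The log2 fold change was 0.13, with a counting interval from -0.03 to 0.28, so that at this depth a 2-fold difference between these libraries is outside the interval. The median log2 fold change was -0.21 over all tested transcripts and 0.21 over the 2712 whose mean reached 200 counts. The sign for MDM2 depended on the scaling, with -0.05 when all columns had to hold 10 counts or more and 0.27 with no filter. These settings moved the median of the well-counted transcripts by -0.17 and 0.14. Of its 7490 bases 2909 are its own, 99.5% of them in the 3′ UTR, where reads from either start site fall, so the outer and inner promoters shown above could not be told apart. The transcript listed from the start next to the inner one, ENST00000539479, has 15 bases of its own and 0 counts.

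The other MDM2 transcripts were close to the limit of detection. A retained intron, ENST00000543046, had 2 and 3 counts in EtOH and 0 in HgCl2, and ENST00000671567, of the nonsense-mediated decay class, had 4 and 4 against 2 and 2. Both groups of the first lie at or under 3 counts, so no bound on its fold is given. Its fitted log2 fold change of -4.33, which places it among the 5 lower transcripts, depends on a small constant added by the fit. Summed over its 36 transcripts MDM2 had a log2 fold change of 0.11 (-0.04 to 0.27).

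MDM4 and PPM1D had few reads. The coding transcripts of MDM4 have at most 18 bases of their own, apart from the short ENST00000367180 with 175, which had 1 and 5 counts in EtOH and 1 in each HgCl2 column. ENST00000462012, with no defined coding sequence, had 4 and 4 counts in EtOH and 0 in both HgCl2 columns, at least 1.21-fold lower when HgCl2 is set to 3 counts, but its counting interval reaches up to 0.74 on the log2 scale, so a difference was not detectable at this depth. All transcripts of MDM4 together had 8 and 12 counts in EtOH and 3 and 2 in HgCl2, with an interval of the log2 fold change from -4.65 to 0.22.

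The long coding transcript of PPM1D, ENST00000305921 (chr17:60600193-60666280), had 15 and 15 counts in EtOH and 5 and 8 in HgCl2. All HgCl2 values lie below the EtOH values, which is no replicate check, since each group counts as 1 sample. Its mean FPKM, 0.571 and 0.309, was under the filter, and the ratio of the means gave a log2 fold change of -1.06 (-2.65 to 0.35). The interval includes 0, so a difference was not detectable at this depth. The short coding isoform of PPM1D, ENST00000629650, had 0 counts in every column although 1509 of its bases are its own. The exact upper limit is 2.44 counts per 1000 own bases, against 7.97 (4.46 to 13.1) for the long isoform in EtOH. ENST00000392995, a target of nonsense-mediated decay with no base of its own, had 0 counts in EtOH and 5 and 1 in HgCl2.

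**Figure D3:**
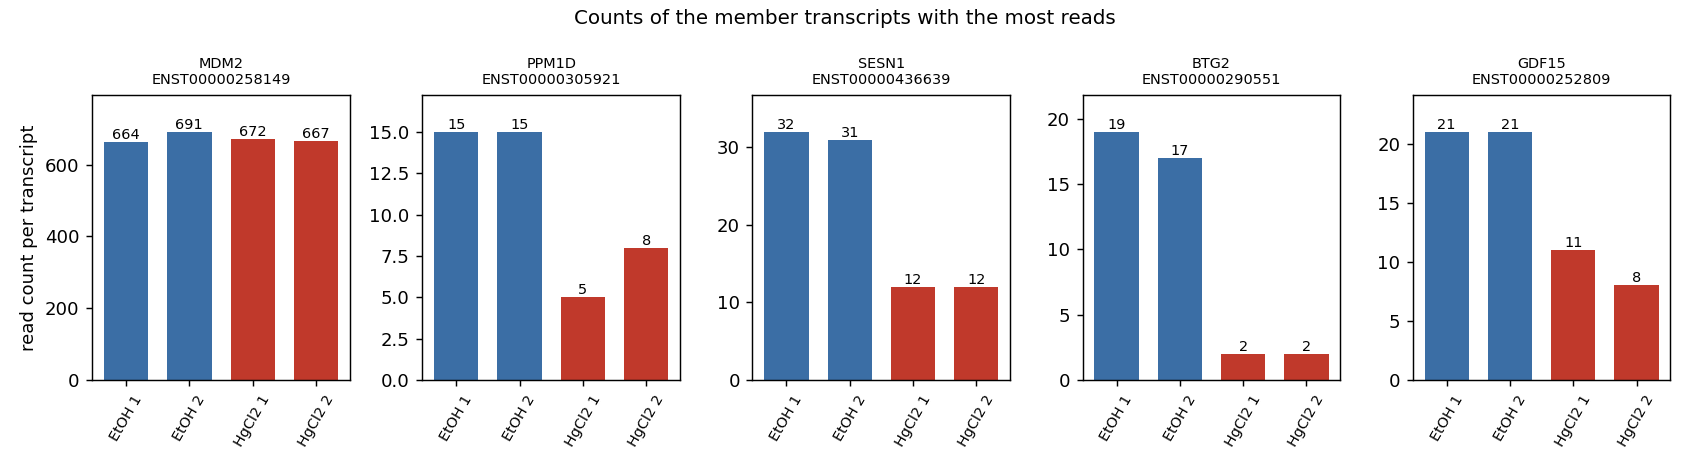
Read counts in each of the 4 columns, 2 EtOH in blue and 2 HgCl2 in red, for the transcripts of the set with the most reads, each on its own axis from 0. MDM2 stays between 664 and 691, and PPM1D, SESN1, BTG2 and GDF15 have fewer counts in both HgCl2 columns than in both EtOH columns.

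Of the genes that act in cell cycle arrest, BTG2 alone had a tested transcript. ENST00000290551 (chr1:203305519-203309602, plus strand) had 19 and 17 counts in EtOH and 2 and 2 in HgCl2. With HgCl2 set to the limit of 3 counts the transcript was at least 5.43-fold lower. The fitted log2 fold change, which at so few counts depends on a small constant added by the fit, was -2.95 with a counting interval from -6.18 to -0.96. The 1482 bases counted for it all lie in its 3′ UTR. BTG2 is made as an immediate early gene with an unstable mRNA. Its relative BTG1, chosen here after its values were seen, had 2134 and 2170 counts in EtOH and 3298 and 3263 in HgCl2, a log2 fold change of 0.75 (0.67 to 0.83). The intervals of BTG1 and BTG2 do not overlap, but the 2 lie at unlike counts. BTG2 lies from 10 to below 30 counts, where 33.1% of all tested transcripts were at least 2-fold lower. BTG1 lies from 200 counts upward, where 2.03% were, so nothing particular to the pair is read from this.

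CDKN1A, GADD45A and GADD45B could not be followed in these tables. CDKN1A, the most used target of p53 in arrest, had 1 count in 1 EtOH column, on ENST00000462537, and its coding transcripts have at most 91 bases of their own. GADD45A and GADD45B had 0 counts on all 7 transcripts each. Their coding transcripts have at most 1 base of their own, and the retained introns that have 349 and 390 in a row had no read, which allows up to 3 counts per column. These zeros say nothing of the spliced mRNAs.

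SESN1 had the most reads of the set after MDM2. The coding transcript from its outer start, ENST00000436639 (chr6:108984309-109094846, minus strand), had 32 and 31 counts in EtOH and 12 and 12 in HgCl2. The log2 fold change was -1.24 with a counting interval from -2.34 to -0.25. Of its 3011 own bases 2133 form the end of the 3′ UTR and 878 the first exon at the outer start. The transcripts from the other starts, ENST00000356644 and ENST00000302071, had 0 counts on 197 and 239 own bases. The limit of 3 counts on 239 bases is 12.6 per 1000 bases, above the 10.5 (7.13 to 14.8) per 1000 own bases of the outer transcript in EtOH, so use of the inner start, the one with the p53 decamer, at the level of the outer one was not detectable at this depth. Reads in the 3′ UTR can come from any start.

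Other SESN1 transcripts had a few counts. ENST00000368971, a retained intron, had 1 and 2 counts in EtOH and 4 and 4 in HgCl2, and ENST00000517548 had 2 and 5 in EtOH and 0 in HgCl2. The interval of the first, -1.45 to 5.73 on the log2 scale, includes 0, and that of the second reaches up to 1.05, so neither difference was detectable at this depth. Summed over its 7 transcripts SESN1 had 37 and 40 counts in EtOH and 19 and 20 in HgCl2, a log2 fold change of -0.84 (-1.70 to -0.02). The other sestrins were also counted, and were chosen after their values were seen. SESN2 ENST00000253063 had 153 and 167 counts against 165 and 170, a log2 fold change of 0.21 (-0.11 to 0.53), and SESN3 ENST00000536441 had 192 and 193 against 258 and 283, or 0.63 (0.36 to 0.91). Both intervals lie above that of the long SESN1 transcript, and that of SESN2 overlaps the interval of the summed SESN1. The long SESN1 transcript lies from 10 to below 30 counts, where 33.1% of all tested transcripts were at least 2-fold lower.

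GDF15 ENST00000252809 (chr19:18386158-18389176, plus strand) had 21 and 21 counts in EtOH and 11 and 8 in HgCl2. Both HgCl2 columns lie below both EtOH columns, which is no replicate check, since each group counts as 1 sample. The log2 fold change was -0.99, just inside the 2-fold limit, with a counting interval from -2.28 to 0.17 that includes 0. Without HgCl2 replicate 1 it was -1.23 and past the limit. The 241 bases counted for it are the last of the 3′ UTR. Whether fewer cells or less RNA per cell held these transcripts cannot be told apart in RNA of whole cultures.

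Levels were compared per 1000 own bases between the 5 transcripts with the most reads, which leaves out the genes without such a stretch. The longest run of own bases is 241 for GDF15, 1349 for MDM2 and 2133 for SESN1. Reads that reach into shared bases may go uncounted, so a short run such as that of GDF15 can be understated. The intervals do not cover this, and the order of the genes holds for these counts only. In EtOH the MDM2 transcript had 233 counts (216 to 251) and that of GDF15 87.1 (53.9 to 133), and these intervals do not overlap. BTG2, SESN1 and PPM1D had 12.1 (7.20 to 19.2), 10.5 (7.13 to 14.8) and 7.97 (4.46 to 13.1), below both and not different beyond counting error. In HgCl2 MDM2 had 230.1 (213 to 248) and GDF15 39.4 (18.5 to 73.6). SESN1 had 3.99 (2.06 to 6.96), PPM1D 3.45 (1.33 to 7.30) and BTG2, on 2 counts and under its limit of 3 counts, 1.35 (0.16 to 4.87), with intervals that overlap. On the deposited FPKM scale, which divides by the whole transcript, MDM2 had 9.76 and 12.1 and GDF15 3.19 and 1.80 in EtOH and HgCl2. One count was worth 1.25 times more FPKM in HgCl2, so the FPKM of MDM2 differ where its counts do not.

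The other known targets of p53 were taken as a list of 45 genes with 353 transcripts. Of these 76 had a count, and 42 transcripts of 24 genes were tested. In HgCl2 8 were at least 2-fold higher, 14 at least 2-fold lower and 20 neither, against 19.2% and 34.1% of all tested transcripts. With the counting interval off 0 as well, 7 were higher and 8 lower, against 15.5% and 17.0%. The median log2 fold change of the list was 0.20, against -0.21 over all tested transcripts. Over those whose mean reached 30 counts in a group it was 0.32 in the list and 0.23 in the 8489 annotated transcripts of the table.

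Of the 26 of these whose mean reached 30 counts in a group, 4 were at least 2-fold higher and 4 lower. The 4 higher ones were retained introns that reached 30 counts in HgCl2 alone. Among the lower ones, CCNG2 ENST00000509972 (mean 56.5 in EtOH and 10.5 in HgCl2) and PLK2 ENST00000511326 (33 and 9) reached it in EtOH alone. The choice thus favours transcripts that are high in 1 group, in either direction. Of all retained introns chosen in the same way 39.5% were at least 2-fold higher and 11.1% lower, and of all protein-coding transcripts 12.0% and 11.3%, so nothing particular to the list is read from the class. Those of the kinase gene PLK2 (ENST00000503115) and the translesion polymerase gene POLK (ENST00000508867) had log2 fold changes of 2.42 and 2.53. FAS ENST00000371857, of the death receptor gene, with no base of its own, had 3 and 2 counts in EtOH and 55 and 53 in HgCl2, at least 19.9-fold higher. PLK2 ENST00000503713 had 0 and 5 against 29 and 37, at least 12.1-fold higher. Lower were THBS1 (ENST00000260356, -2.21), an antiangiogenic matrix protein, RPS27L (ENST00000330964, -1.54), CCNG2 ENST00000509972 (-2.27) and a further retained intron of PLK2, ENST00000511326 (-1.72). The long transcripts of POLK and CCNG2, ENST00000241436 and ENST00000316355, were at -0.47 (-1.07 to 0.11) and 0.47 (0.35 to 0.59). The long CCNG2 transcript was opposite in sign to the short one. For the long POLK transcript the interval includes 0, so its sign is not settled at this depth.

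**Figure D4:**
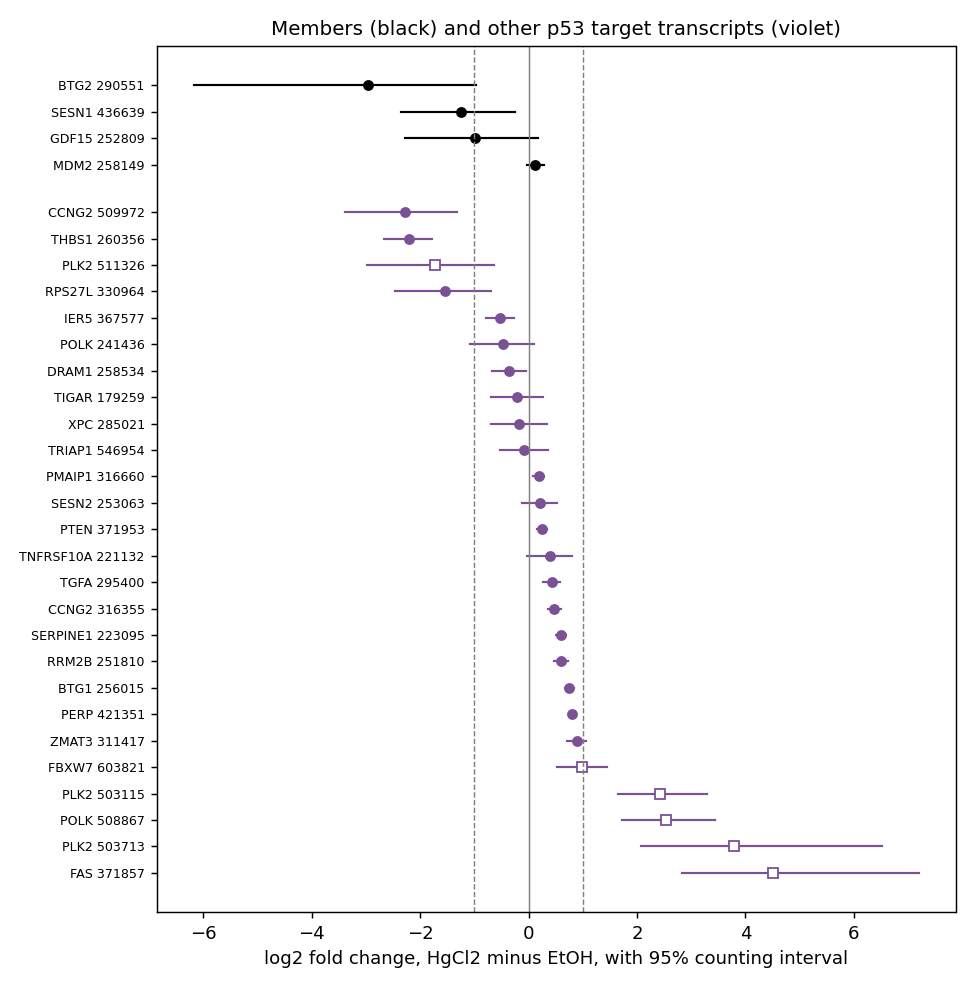
Log2 fold change with its 95% counting interval for BTG2, SESN1, GDF15 and MDM2 in black and for the 26 other p53 target transcripts whose mean reached 30 counts in a group in violet, filled circles for protein-coding transcripts and open squares for retained introns, with dashed lines at 2-fold. In violet, 4 transcripts lie past 2-fold on either side, and the 4 on the higher side reached 30 counts in HgCl2 alone. On the lower side, CCNG2 ENST00000509972 and PLK2 ENST00000511326 reached it in EtOH alone.

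The list of p53 relatives and partners had 33 tested transcripts, of which 9 were at least 2-fold higher and 9 lower, with a median of 0.04, against 19.2% and 34.1% of all tested transcripts and a median of -0.21. Over those whose mean reached 30 counts in a group the median was 0.48, against 0.23 in the annotated transcripts of the table. Of those higher 5 reached a mean of 30 counts in a group, 3 of them in HgCl2 alone, and the 9 lower ones stayed below that count. Among the 5 were 2 retained introns of RPL5 (ENST00000461952, 2.22, and ENST00000497519, 1.86), a ribosomal protein that binds MDM2. USP7, the deubiquitinase of MDM2 and p53, had 2, the protein-coding ENST00000344836 (1.81) and the retained intron ENST00000569448 (3.40). The last was a retained intron of the damage kinase gene ATR (ENST00000659195, 2.65). Of all retained introns whose mean reached 30 counts in a group, 39.5% were at least 2-fold higher. Nothing particular to these genes is therefore read from the class. Of the families of the set, 18 transcripts were tested, with 1 higher and 5 lower, again against 19.2% and 34.1%, and a median of 0.14. The one past 2-fold with at least 30 counts in a group was CDKN1B ENST00000614874, with 37 and 37 counts in EtOH and 9 and 11 in HgCl2 (-1.73), while its main transcript ENST00000228872 was at -0.11.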

How the data were processed

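RNA of 4 H1299 samples, 2 labelled EtOH and 2 labelled HgCl2, was analysed from 2 deposited tables, whose columns were assigned by the group and replicate number in their names. The authors trimmed reads with Trim Galore, used STAR 2.5.4b for alignment to GRCh38 (Ensembl 98), and deposited raw counts per transcript made with Rsubread, whose counting options are not given in the sources used here. FPKM, also deposited, come from DESeq2 1.26.0 with median ratios, run by the authors.

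From the counts, log2 fold changes came from edgeR 4.0.16 (glmQLFit, TMM, R 4.3.3), run on those transcripts whose mean FPKM exceeded 1 in EtOH or HgCl2. The planned tests were not used, since each group counts as 1 sample. A group at or under 3 counts was set to 3 counts and the fold given as a bound. Alternatives used DESeq2 1.42.0 and limma 3.58.1. The steps across transcripts were tested on simulated data. Names, classes and positions come from GENCODE 44, in which 223558 of 227368 identifiers were found, and own bases were counted among these. Promoter windows are from RefSeq.

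The members and lists were chosen with earlier results of these data known. Every member gene is named. Of the other lists, transcripts past 2-fold with a mean of at least 30 counts in a group are named, and others only where stated. An item that the lists cover is not reported here.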

Additional observations from a re-analysis of the deposited data

How the results depend on the processing

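When all columns had to hold 10 counts or more, 0 transcripts of the p53 pathway set were at least 2-fold higher in HgCl2 and 1 lower, of the other p53 targets 2 and 3, and of all tested transcripts 963 and 1101. With no filter on FPKM these were 3 and 8, 15 and 38, and 8241 and 18914. With limma on log2(FPKM + 1), 0 of the set were higher and 3 lower, 7 and 8 of the other targets, and 2937 and 3357 of all, against 3372 and 5987 in the edgeR fit, and 3864 and 5392 with 0.1 in place of 1, so the counts depended on the tool, the scaling and the added constant. Other settings kept these numbers within 1.5 times. Leaving out each column in turn gave 5 to 6 lower transcripts of the set and 1 higher. Of the values of single transcripts of the set under other settings, 0 of those past 2-fold changed sign. Those with 0 counts in HgCl2 have no lower limit, and with limma on log2(FPKM + 1) they moved to -1.03 for MDM2 ENST00000543046, -1.17 for MDM4 ENST00000462012 and -1.36 for SESN1 ENST00000517548, from -4.33, -4.98 and -4.79. Outside their counting intervals were BTG2 ENST00000290551 (-0.92 with limma on log2(FPKM + 1)) and MDM2 ENST00000258149 (-0.05 when all columns had to hold 10 counts and 0.30 with limma on log2(FPKM + 0.1)). SESN1 ENST00000436639 was under 2-fold with both limma settings, at -0.57 and -0.98, and when counts were summed over the gene, at -0.84. GDF15, at the limit, lay between -0.78 and -1.23 when a column was left out. A fit with the replicate number as a block gave 1 higher and 5 lower transcripts of the set, 8 and 14 of the other targets, and 3372 and 5987 of all. The deviations of same-numbered columns had a Pearson correlation of 0.02, and the labels name no pairing. Under the filter of 10 counts in all columns, MDM2 and SESN1 were the genes of the set left. Depth limits PPM1D, BTG2 and SESN1. For GDF15, with 241 own bases, and for MDM4, CDKN1A, GADD45A and GADD45B the few own bases limit what was counted.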

Other observations

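Factors known to drive these genes without p53 had 21 tested transcripts. Of these 5 were at least 2-fold higher and 10 lower in HgCl2, against 19.2% and 34.1% of all tested transcripts. The median log2 fold change was -0.30, against -0.21 over all tested transcripts. Over those whose mean reached 30 counts in a group it was 0.82, against 0.23 in the annotated transcripts of the table. Where the mean reached 30 counts in a group, those higher were 2 transcripts of ATF3, a stress factor that acts on GDF15 and GADD45A, neither with a defined coding sequence, the retained intron ENST00000465155 with 14 and 15 counts in EtOH and 46 and 45 in HgCl2 (1.78) and ENST00000492118 with 6 and 9 against 39 and 41 (2.54). No coding ATF3 transcript had a count. KLF6 ENST00000469435, a factor that acts on CDKN1A, had 93 and 101 counts against 216 and 209 (1.27). SMAD4 ENST00000585448, a retained intron, and SP3 ENST00000483084, without a defined coding sequence, had log2 fold changes of 1.84 and 1.21. The other tested SMAD4 transcripts were below 0, ENST00000591126 at -0.30, ENST00000589706 at -1.43 and ENST00000593223, with 0 and 1 counts in HgCl2, at -3.48. The coding SP3 ENST00000310015 was at 0.80. At least 2-fold lower with 30 counts in a group was SMAD3 ENST00000327367, with 1326 and 1390 counts against 619 and 579 (-1.04). Only 1 of its bases is its own. Others were named after their values were seen. EGR1, which acts on GDF15 and GADD45A, had 1487 and 1466 counts against 2393 and 2367 (0.83). ATF4 ENST00000337304, of the integrated stress response, had 18 and 16 against 2 and 0, at least 5.13-fold lower, and MYC ENST00000621592 had 22 and 22 against 2 and 2, at least 6.64-fold lower. Neither transcript has a coding base of its own, so these counts do not give the level of the gene. Of all tested transcripts, 62.6% with a mean below 10 counts were at least 2-fold lower, and 33.1% from 10 to below 30 counts.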
